A study of Mus musculus with 12 samples.

Results

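Genes of stratified squamous epithelium and of cornification, 36 in all, were followed over 12 microarrays of mouse colon. They are the keratins of stratified epithelia, the precursors and cross-linking enzymes of the cornified envelope, desmosomal cadherins and a few proteins of the basal layer, taken from a list of symbols. Each of the 36 had at least 1 probe among the 17332 genes that could be named on the array. The list was drawn up because these genes were high on the arrays of DSS-treated ATF6bKO colon. Their levels in that group are therefore a description with no test, and tests are given for the other genotypes.

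Colon of male C57BL/6J mice was sampled in 6 groups of 2 arrays each: WT, ATF6bKO and ATF6aKO, either untreated (UT) or given dextran sulfate sodium (DSS) at 3% in their water over 3 days. DSS damages the lining of the colon and brings on colitis. ATF6a and ATF6b are membrane-bound transcription factors of the endoplasmic reticulum stress response, and each knockout lacks 1 of them. The age of the mice, whether RNA was pooled, and which stretch of the colon was taken are not given in the sources used here, and nothing says that replicates are separate animals, so that p-values measure the spread between these samples only. For the WT arrays the titles and the treatment fields name opposite treatments. The WT groups are called WT titled DSS and WT titled UT throughout, and no direction of a DSS response in WT is certain.

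Most of the colon is lined by a single layer of columnar cells, which does not cornify. Stratified squamous epithelium, as in skin, oesophagus and the anal canal, has a basal layer marked by Krt5, Krt14 and the transcription factor Trp63. As cells move up they exchange these keratins for suprabasal ones such as Krt1 and Krt10 or, in moist mucosa, Krt4 and Krt13. In the outermost layers involucrin, loricrin and small proline-rich proteins are cross-linked by transglutaminases into the cornified envelope. Many of the envelope genes lie side by side in the epidermal differentiation complex.

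Promoters of 4 members whose windows hold AP-1 letters are given here, since envelope genes are known to be driven through AP-1 sites. The sequences are the 250 bases before the annotated start, from RefSeq (GRCm38.p6), 5′ to 3′ on the strand of the gene, with the AP-1 letters TGANTCA and the TATA letters TATAA in capitals. Lor lies at chr3:92083143-92083392 (minus strand), Sprr2d at chr3:92338890-92339139 (plus strand), Sprr1a at chr3:92485882-92486131 (minus strand) and Krtdap at chr7:30787655-30787904 (plus strand).
Lor: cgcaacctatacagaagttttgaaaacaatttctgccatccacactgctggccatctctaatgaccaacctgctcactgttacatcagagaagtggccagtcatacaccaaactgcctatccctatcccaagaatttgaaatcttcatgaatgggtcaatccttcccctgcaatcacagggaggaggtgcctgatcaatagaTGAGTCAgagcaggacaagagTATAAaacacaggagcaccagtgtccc
Sprr2d: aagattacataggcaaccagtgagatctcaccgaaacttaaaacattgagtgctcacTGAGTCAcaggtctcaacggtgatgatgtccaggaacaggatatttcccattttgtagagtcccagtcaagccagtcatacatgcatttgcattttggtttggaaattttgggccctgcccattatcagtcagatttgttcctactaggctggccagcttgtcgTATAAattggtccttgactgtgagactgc
Sprr1a: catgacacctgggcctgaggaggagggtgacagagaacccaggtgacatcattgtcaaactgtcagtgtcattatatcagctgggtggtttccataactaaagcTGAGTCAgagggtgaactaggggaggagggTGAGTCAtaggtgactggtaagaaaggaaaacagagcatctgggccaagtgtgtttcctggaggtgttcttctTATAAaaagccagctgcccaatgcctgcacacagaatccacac
Krtdap: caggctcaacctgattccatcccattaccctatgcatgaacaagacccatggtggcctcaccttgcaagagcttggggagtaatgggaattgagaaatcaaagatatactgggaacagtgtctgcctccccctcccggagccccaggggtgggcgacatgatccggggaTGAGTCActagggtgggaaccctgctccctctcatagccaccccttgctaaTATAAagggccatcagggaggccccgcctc
A promoter window was found for 22 of the 36 members, 24 windows in all because Krt13 and Tgm1 have more than 1. TGANTCA, which reads the same on both strands, stood in 10 of the 24 windows (41.7%), against 6.75% of all 32851 windows of that length. The 9 genes that held it were Krt13, Krtdap, Sprr1a, Sprr1b, Sprr2d, Ivl, Lor, Flg2 and Sbsn. The 4 printed are not the members that differed most between the ATF6bKO DSS arrays. Lce3f, Calm4 and Sprr3, whose windows lacked TGANTCA, differed by 5.99, 6.39 and 6.02 log2 units. Lor, Krtdap, Sprr2d and Sprr1a differed by 5.91, 5.71, 4.29 and 2.10. TATAA, read on the strand of the gene, began 20 to 40 bases before the start in 10 of the 24 windows (41.7%), against 3.52% of all windows. The ETS-type letters GGAAGT, searched on both strands, stood in 5 of the 24 windows (20.8%) and in 19.7% of all windows. No match of 1 motif overlapped a match of another in the members' windows. These matches are letters in a window, and nothing was measured at these sites.

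A level below is the log2 of a probe's processed signal minus the log2 of the 75th percentile of its array, so that 0 is the brightness of the 75th percentile. Between 66.0% and 76.9% of spots were well above background on an array. The lowest level at which a probe was called well above background lay between -6.68 and -5.40, and lower values are bounds. Levels are compared within a probe, never between genes. The deleted genes followed their labels in direction. Atf6 lay between -3.23 and -3.04 on the ATF6aKO arrays and between 0.60 and 1.22 elsewhere. Atf6b lay between -7.64 and -4.14 on the ATF6bKO arrays and between -1.10 and 0.16 elsewhere, the highest of the knockout values being that of ATF6bKO DSS replicate 1, the 1 array of the 4 on which it was well above background. Markers of colonic columnar epithelium were all present: the 17 genes of that list were well above background on every array, with a median level of 4.82 to 6.39.

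Squamous transcripts were present on both ATF6bKO DSS arrays but at very different levels. On ATF6bKO DSS replicate 2, 35 of the 36 genes were well above background, on replicate 1 28 were, and on the ATF6bKO UT arrays 15 and 17 were. The median level of the 36 genes was -5.97 and -5.82 on the UT arrays, -3.08 on DSS replicate 1 and 1.46 on DSS replicate 2, and between -6.60 and -5.04 on the 8 arrays of the other genotypes. Against the mean of the UT arrays the median difference over the 36 genes was 1.66 on replicate 1 and 5.13 on replicate 2, where all 32508 genes and transcripts had medians of -0.14 and 0.07. With normexp background correction the medians over the 36 were 0.32 and 2.83. Of the 36, 24 had both DSS arrays above both UT arrays (21.7% of all genes did) and 1 had both below, Tgm3 (28.5% of all genes). The list was chosen from this contrast, so nothing is read from that count.

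The pair of DSS arrays differed widely. Replicate 2 exceeded replicate 1 for 35 of the 36, by a median of 4.27 log2 units against 0.07 over all genes, and by at least 3 units for 25 of the 36 (69.4%), a gap that 0.957% of all genes showed. The exception was Sfn, 0.17 units lower on replicate 2. A mean over this pair therefore stands for neither array, and each is given separately. In bulk tissue fewer cells of a type and less RNA per cell cannot be told apart.

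**Figure D1:**
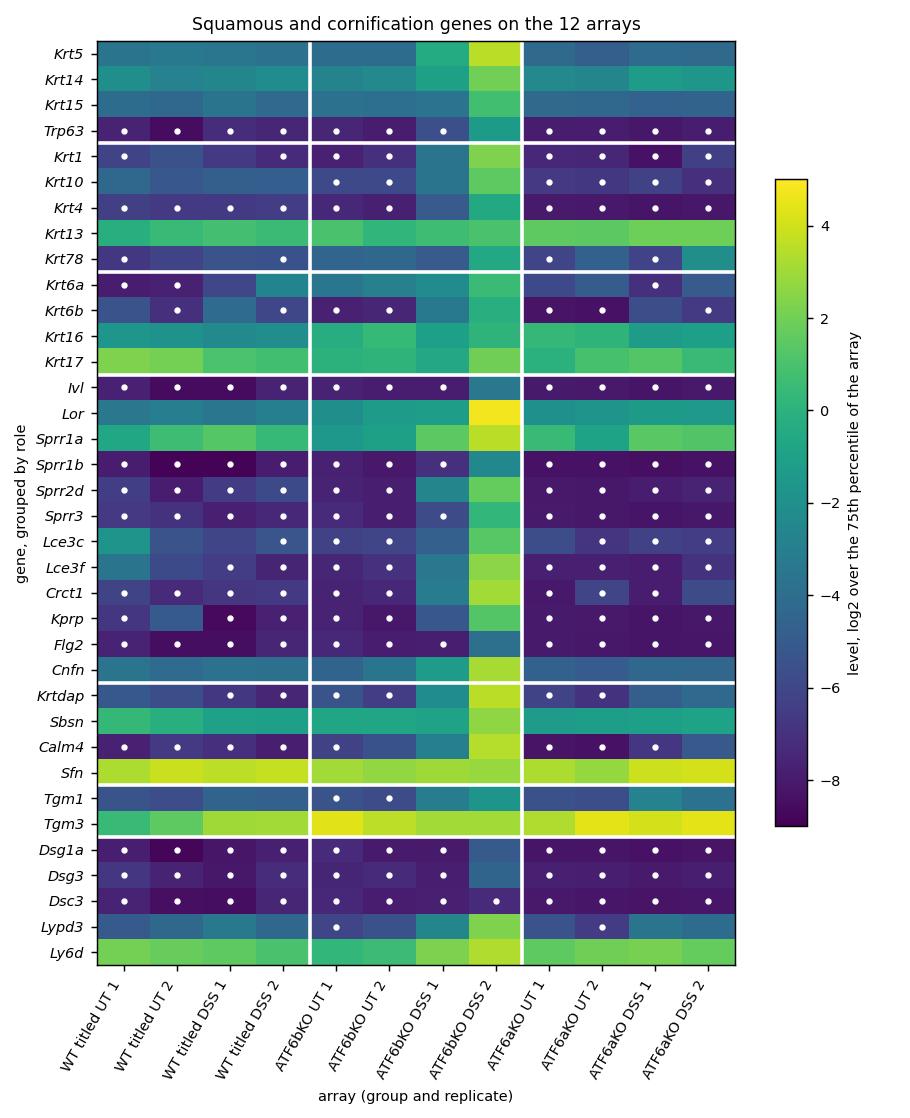
Level of each of the 36 genes (rows, grouped by role) on each of the 12 arrays (columns), as log2 over the 75th percentile of the array. White dots mark values not well above background. ATF6bKO DSS replicate 2 is the brightest column for most genes, with 35 of 36 well above background, and replicate 1 stands between it and the UT arrays, where 15 and 17 were.

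All 4 basal-layer genes were higher on both ATF6bKO DSS arrays than on both UT arrays, Krt15 on replicate 1 by the narrowest of margins. Of all genes 21.7% were, and as the list was chosen from this contrast nothing is read from the count. Krt5, a basal keratin, was at -4.07 and -4.03 on the UT arrays, -0.40 on DSS replicate 1 and 3.56 on replicate 2, and between -4.76 and -3.35 on the other genotypes' arrays. Its partner Krt14 was at -2.72 and -2.39, then -1.04 and 2.03, with -2.81 to -1.33 elsewhere. Both DSS values of these 2 keratins lay above all 10 other arrays. Krt15, a keratin of quiescent basal and hair bulge cells, was at -3.71 and -3.87 untreated, -3.69 on DSS replicate 1 and 0.75 on replicate 2, so that only replicate 2 stood apart. Trp63, the transcription factor that marks the basal layer, was well above background on replicate 2 alone (-1.35, at least 19.3 times the bound set by the UT arrays). The other probe for Trp63 was not well above background on any array.

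A fold given as "at least" sets 1 DSS array against the mean of the UT arrays, each UT array entered at the higher of its own value and its lowest level well above background.

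The suprabasal keratins of dry and of moist epithelium were both present. Krt1, a keratin of the epidermal spinous layer, was not well above background at -7.74 and -7.09 on the UT arrays and reached -3.60 on DSS replicate 1 (at least 4.06-fold) and 2.31 on replicate 2 (at least 244-fold). Its partner Krt10 went from -5.89 and -5.90, below background, to -3.62 and 1.55, at least 4-fold and 143-fold. Krt4, of oesophageal and anal-type mucosa, was well above background on the ATF6bKO DSS arrays and on no other, at -4.97 and -0.51, at least 1.56-fold and 34.5-fold. The probe for Krt78, a late suprabasal keratin, was at -4.41 and -4.31 untreated, -4.99 on replicate 1 and -0.56 on replicate 2, the only DSS array above the UT arrays. ATF6aKO DSS replicate 2 had the next highest Krt78 level of the 12 arrays, -2.06, while its replicate 1 was at -6.19, below background.

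For Krt13, the pair of probes disagreed. The brighter, used here, was well above background on all 12 arrays and nearly level within ATF6bKO, at 0.96 and 0.23 untreated and 0.66 and 0.99 after DSS. The other was not above background on the ATF6bKO UT arrays (-7.42 and -7.18) and was at -4.43 and -0.02 on the DSS arrays. On ATF6aKO it went from -6.90 and -6.91 untreated to -3.39 and -4.87 after DSS. Counts and tests for Krt13 rest on the first probe.

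Wound keratins, which stratified epithelia make when injured or hyperproliferative, differed less, with medians of 0.16 on replicate 1 and 2.80 on replicate 2. Krt6b was below background untreated (-7.69 and -7.49) and reached -3.35 and -0.17, at least 4.83-fold and 43.7-fold. Krt6a was already present untreated at -3.51 and -2.88 and was at -2.24 and 0.52 after DSS. Both DSS arrays lay above both UT arrays for these 2 genes, which are close paralogs, and which of them a probe reads is uncertain. Krt16 did not separate the groups, at -0.30 and 0.38 untreated and -1.09 and 0.12 after DSS. Nor did Krt17, at 0.02 and 0.13 untreated and -0.54 and 1.96 after DSS.

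Envelope genes had the highest median difference of the role groups on replicate 2, while on replicate 1 that of the suprabasal keratins was slightly higher, 2.28. Of the 12 genes of the envelope and the differentiation complex, 10 had both DSS arrays above both UT arrays, where 21.7% of all genes did. Nothing is read from this count either. The median differences of the 12 were 2.25 on replicate 1 and 7.38 on replicate 2. Crct1, a cysteine-rich protein of the complex, went from -7.66 and -7.43 to -3.08 and 3.06, at least 5.8-fold and 408-fold. Sprr2d, a small proline-rich envelope precursor, went from -7.62 and -7.84 to -2.59 and 1.70, at least 8.13-fold and 159-fold, and like Krt4 was above background on no other array.

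Late envelope genes Lce3f and Lce3c, which are induced in wounded epidermis, were at -3.41 and 2.57 and at -4.70 and 1.38 on the DSS arrays, from below background untreated. They were also well above background on WT titled UT replicate 1, Lce3c at -1.75 and Lce3f at -3.63, where the other WT titled UT array gave -5.43 and -5.88. Both probes for Lce3c showed this (the second at -2.73 and -6.26), and the high WT value rests on that single array.

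Sprr1a and Lor were present on all 12 arrays. Sprr1a, an envelope precursor made early in wounds, was at -1.52 and -1.03 untreated, 1.47 on replicate 1 and 3.57 on replicate 2. The other genotypes ran from -0.86 to 1.43, the highest being ATF6aKO DSS replicate 1, so that replicate 1 of ATF6bKO DSS hardly stood apart. Lor encodes loricrin, the bulk protein of the epidermal envelope, and was at -2.04 and -1.34 untreated, -1.14 on replicate 1 and 4.77 on replicate 2. On replicate 1 it thus lay within 1 unit of the UT arrays, and on replicate 2 it lay 5.91 units above replicate 1. Cnfn, another envelope protein, was at -4.48 and -3.54 untreated, -1.31 on replicate 1 and 3.17 on replicate 2.

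Other envelope genes were seen on replicate 2 alone. Ivl (involucrin) was at -3.37, Flg2 (filaggrin 2) at -3.85, Sprr1b at -2.44 and Sprr3, an oesophageal form, at 0.26, each well above background there and on no other array. On replicate 1 their levels were -7.89, -7.83, -7.06 and -5.76. Kprp was well above background on both DSS arrays, at -5.18 and 1.28, at least 1.35-fold and 119-fold over the untreated bound, and on WT titled UT replicate 2 at -5.02.

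Among the other suprabasal proteins Krtdap, secreted during keratinocyte differentiation, went from -5.35 and -6.43, below background, to -2.18 and 3.53, at least 10.4-fold and 546-fold. This was the widest bound of the 36 on either array. Calm4, a calmodulin-like protein of suprabasal cells, was at -6.26 and -5.45 untreated and -2.96 and 3.43 after DSS. Sbsn (suprabasin) was at -0.70 and -0.75 untreated and -0.93 on replicate 1, and reached 2.68 on replicate 2 only. Sfn, the 14-3-3 sigma protein that columnar colonic cells also make, did not separate the groups, at 3.05 and 2.75 untreated and 3.00 and 2.83 after DSS.

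The transglutaminases, which cross-link the envelope, went apart. Tgm1, the enzyme of keratinocyte membranes, was below background untreated (-5.41 and -5.73) and reached -3.08 and -1.76, at least 5.61-fold and 14-fold, with 1.32 units between the DSS arrays. Tgm3 was lower on both DSS arrays (3.04 and 3.08) than on both UT arrays (4.38 and 3.63). Of the cell-surface genes, Ly6d was at 0.25 and 0.60 untreated and 2.23 and 3.35 after DSS, and Lypd3 at -6.05 and -5.54 untreated and -2.65 and 2.31 after DSS. The desmosomal cadherins of stratified epithelium were dim: Dsg1a (-5.01) and Dsg3 (-4.49) were above background on replicate 2 alone, and Dsc3 on no array.

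**Figure D2:**
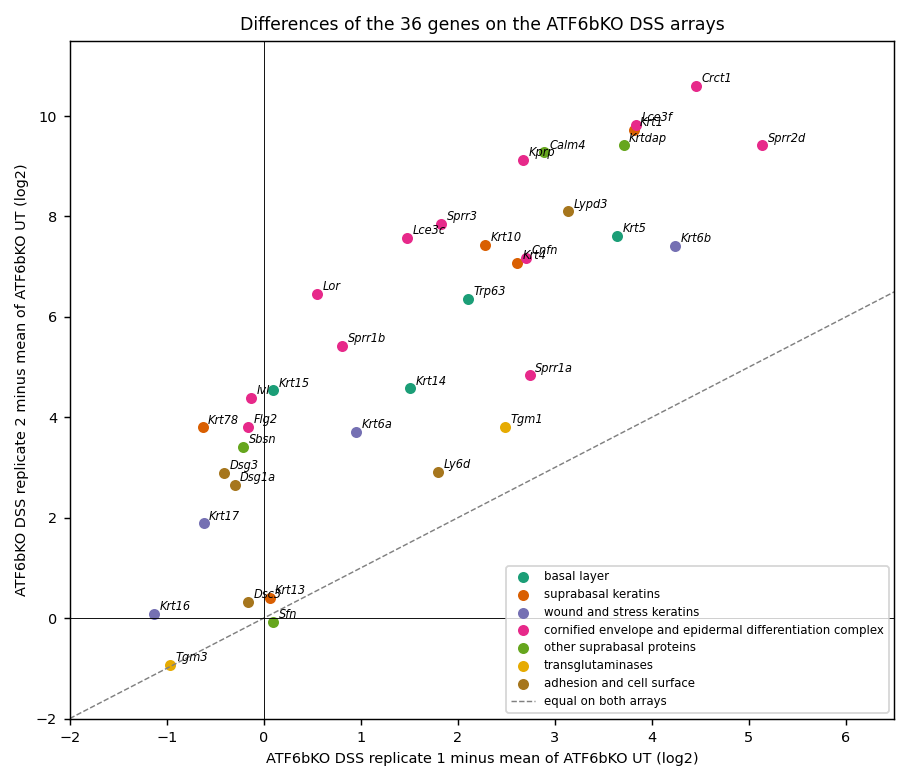
Difference of each ATF6bKO DSS array from the mean of the ATF6bKO UT arrays (log2), replicate 1 on the x axis and replicate 2 on the y axis, 1 point per gene coloured by role, with a dashed line where both would be equal. All points but Sfn lie above the line; among the 24 genes with both DSS arrays above both UT arrays, Ly6d, Tgm1 and Sprr1a lie nearest to it, and Lor, Krt15, Krt78 and Sbsn lie near 0 on the x axis with differences of 3.41 to 6.46 on the y axis.

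The genes fell into classes by where they could be seen. Detection on the ATF6bKO DSS arrays is part of that definition, so the class medians on these arrays were partly fixed by it. Nothing is read from the differences between classes. The 13 that were well above background on all 12 arrays, among them Krt5, Krt14, Lor, Sbsn and Cnfn, had a median difference of 0.10 on replicate 1 and 3.41 on replicate 2. The 13 seen on both ATF6bKO DSS arrays and on some others had medians of 2.89 and 8.10. The 7 seen on replicate 2 alone had medians of -0.13 and 4.39. The remaining 3 were Krt4 and Sprr2d, seen on both DSS arrays only, and Dsc3, seen on none.

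Transcripts of other tissues were high together with the squamous genes on replicate 2 and not on replicate 1. Of 9 hair follicle genes, 8 were well above background on replicate 2 and 0 on replicate 1, with median levels of -0.12 and -7.85. The inner-root-sheath keratins Krt25, Krt27 and Krt71 were at -8.03, -6.70 and -7.96 on replicate 1 and at -0.12, 0.52 and 2.49 on replicate 2. Of 14 skeletal muscle genes, 14 were well above background on replicate 2 and 9 on replicate 1, and 10 (71.4%) were at least 3 units higher on replicate 2. Acta1, the skeletal alpha-actin, was at 1.81 and 3.61, the creatine kinase Ckm at -2.87 and -0.35, and the fast myosin Myh4 at -7.69 and 0.95 on replicates 1 and 2. On replicate 1 Ckm was lower than on any of the other 11 arrays. The summed level of the muscle list was 2.31 on replicate 1, within the 1.64 to 3.25 of the 10 arrays outside this pair, and 6.51 on replicate 2. That of the hair follicle list was -3.89 on replicate 1 (-3.47 to -1.31 on the arrays outside ATF6bKO DSS) and 3.86 on replicate 2. The summed level of the 36 squamous genes was 4.94 and 7.40 on these arrays, and 4.62 to 5.70 on the others, so that on replicate 1 this sum, which the bright probes of Sfn and Tgm3 fill, did not stand apart.

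Of the 10 sebaceous and anal gland genes, 3 (30%) were at least 3 units higher on replicate 2 than on replicate 1. The median level of the list was -5.89 on replicate 1 and -1.90 on replicate 2, with -5.41 and -5.25 on the UT arrays. Within genes the difference was far smaller, a median of 0.51 for replicate 2 against the UT mean and 0.74 against replicate 1. The summed level of the list was 3.43 on replicate 1 and 4.13 on replicate 2, with 3.42 and 3.44 on the UT arrays. Awat2, a wax synthase, was at -6.26 on replicate 1 and -5.99 on replicate 2, Elovl3, a fatty acid elongase of skin glands, at -8.04 and -1.71, and Fa2h at 2.32 and 2.82. Of the melanocyte genes, Tyrp1 and Tyr were not above background on any array, and Dct, Pmel and Mitf were at -4.37, -3.23 and -0.02 on replicate 1 and -3.92, -2.95 and -0.53 on replicate 2. The summed level of the melanocyte list was 0.23 and -0.08 on the DSS arrays and -0.03 and 0.62 on the UT arrays.

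The medians of the other lists differed little between the DSS arrays. Columnar markers Krt8, Krt18 and Krt19 were at 9.20, 7.93 and 8.37 on replicate 1 and 9.13, 8.08 and 8.18 on replicate 2. The neutrophil genes S100a8, S100a9 and Cxcr2 were at 2.07, 4.22 and -2.40 on replicate 1 and 1.91, 4.19 and -3.05 on replicate 2, with list medians 3.73 and 3.40 above the UT mean. Genes of wounded or fetal-like epithelium had medians 1.16 and 1.39 above it, Ly6a, Anxa1 and Anxa3 being at 6.60, 5.05 and 5.61 on replicate 1 and 6.78, 5.38 and 5.47 on replicate 2. The Hox genes of the distal hindgut, Hoxb13, Hoxa13 and Hoxd13, were at 3.53, 0.23 and 2.41 on replicate 1 and 3.33, -0.16 and 2.10 on replicate 2. By median level, squamous genes were at -3.08 on replicate 1 and 1.46 on replicate 2, with -5.97 and -5.82 on the UT arrays. Hair follicle genes were at -7.85 and -0.12 (UT -7.64 and -7.17), and muscle genes at -3.33 and 1.33 (UT -2.72 and -2.93). Sebaceous and anal gland genes were at -5.89 and -1.90 (UT -5.41 and -5.25), although within genes replicate 2 lay a median of only 0.51 above the UT mean. By summed level the squamous genes of replicate 1 did not stand apart. The part of hair follicle, muscle and gland tissue in the squamous levels of either DSS array was not tested. Neither was that of a squamous margin in the piece sampled.

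**Figure D3:**
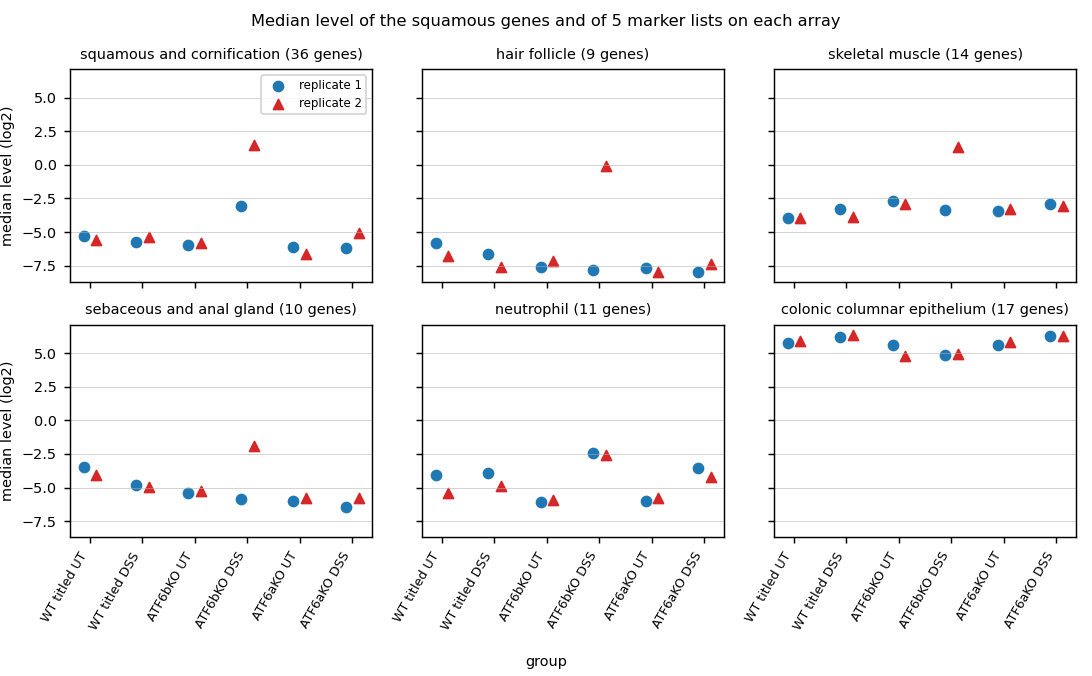
Median level (log2 over the 75th percentile of the array) of the 36 squamous genes and of 5 marker lists in the 6 groups, replicate 1 as circles and replicate 2 as triangles. On ATF6bKO DSS replicate 2 the squamous, hair follicle, skeletal muscle and sebaceous and anal gland medians stand at 1.46, -0.12, 1.33 and -1.90. Each is above its other arrays, but for the sebaceous and anal gland list the median difference within genes from the UT mean was only 0.51. On replicate 1 only the squamous and neutrophil medians (-3.08 and -2.40) stand above those of the ATF6bKO UT arrays.

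A second list of 86 squamous genes, none of them among the 36 and likewise put together with results of these arrays known, differed less. Its median difference from the UT mean was 0.22 on replicate 1 and 1.45 on replicate 2, and 25 of the 86 (29.1%) were at least 3 units higher on replicate 2. These are values of the contrast that the genes were chosen on and are given with no test.

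The first keratins of that list did not all follow the 36 genes. Krt2, an upper epidermal keratin, was at -5.54 and -4.03 untreated and -5.51 and -5.71 after DSS, Krt76, of the palate, was below background on all 4 of these arrays, and Krt79 was at -5.68 and -5.49 untreated and -6.17 and -0.21 after DSS. Aqp3, a basal aquaporin, was at -4.65 and -4.73 untreated and -2.04 and 1.61 after DSS, and Col17a1, a hemidesmosomal collagen, at -7.56 and -7.96 untreated and -5.17 and -1.73 after DSS. Both DSS arrays stood above both UT arrays. The late envelope gene Lce1a1 likewise went from -7.64 and -7.67 to -4.67 and 1.61. By contrast the probes for Sprr2a1, Sprr2b and Sprr2e, relatives of Sprr2d known from intestinal epithelium, were bright on every array, between 3.96 and 8.69, and within ATF6bKO spanned 5.59 to 8.08 with no array apart. These genes are near copies, and which of them a probe reads is uncertain.

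In ATF6aKO colon, whose arrays the list was not chosen from, 1 of the 28 members tested passed the threshold for DSS against UT, where 6.34% of all 23236 genes tested did (2.88% higher, 3.46% lower). The 28 are those well above background on both arrays of some group, and for 11 of them that group was not an ATF6aKO one. Of the 17 members that were well above background on both arrays of an ATF6aKO group 1 was called, where 6.68% of such genes were. The 11 others, Krt1, Krt4, Krt6b, Krt10, Krt78, Calm4, Crct1, Kprp, Lce3c, Lce3f and Sprr2d, had little or no measured level here, and the count of calls says nothing of them. Of the 36, 14 had both DSS arrays above both UT arrays (29.4% of all genes) and 12 had both below (37.4%). The median difference over the 36 was 0.22, against -0.03 over all genes. In the same fit 5 of 11 neutrophil genes and 6 of 13 wound genes rose, and the median difference was -0.31 over 3 hair follicle genes and 0.60 over 11 muscle genes.

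Tgm1 was the member that passed. It was at -5.55 and -5.64 untreated and -2.79 and -3.78 after DSS, so the groups did not overlap. The difference was 2.31 (SE 0.432; 4.96-fold; limma adjusted p = 0.0207), and it was higher in 2 of 2 DSS arrays. The adjusted p ran from 0.0149 to 0.149 over the alternatives. The call was lost with normexp background correction (difference 0.87, adjusted p = 0.0797), in a fit of these 4 arrays alone (adjusted p = 0.052), and without ATF6aKO UT replicate 1 (0.0951), UT replicate 2 (0.111) or DSS replicate 1 (0.149).

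The spread used in this test is shared with the ATF6bKO DSS pair, which differed widely for these genes. Left out of the fit, the ATF6bKO arrays gave 3 calls: Tgm1 and Krtdap higher and Krt16 lower. Without either single ATF6bKO DSS array there were 4, Lypd3 being the added one (adjusted p = 0.0448). The values behind these are as follows. Krt16 was at 0.33 and 0.13 untreated and -1.25 and -1.12 after DSS, a difference of -1.42 (SE 0.366, limma adjusted p = 0.056 with all arrays and 0.0249 without the ATF6bKO arrays).

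Krtdap was at -6.14 and -6.93, below background, untreated and at -4.76 and -4.20 after DSS (difference 2.05, SE 1.43, limma adjusted p = 0.425). Lypd3 was at -5.42 and -6.49 untreated and -3.64 and -4.05 after DSS (2.11, SE 1.26, limma adjusted p = 0.351). Both were above background on both DSS arrays, and no UT value overlapped a DSS value.

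Sfn had 3 probes, all higher on both ATF6aKO DSS arrays. The brightest was at 3.30 and 2.80 untreated and 3.94 and 4.12 after DSS (0.98, SE 0.25, limma adjusted p = 0.0541), and the mean of the 3 probes gave 1.31 (limma adjusted p = 0.0226). Sprr1a was at 0.48 and -0.86 untreated and 1.43 and 1.18 after DSS (1.49, SE 0.724, limma adjusted p = 0.254). Krt14 was at -2.39 and -2.61 untreated and -1.33 and -1.58 after DSS (1.05, SE 0.78, limma adjusted p = 0.456). Krt6b was at -8.28 and -8.30 untreated and -5.63 and -6.64 after DSS, above background on 1 array only (2.16, SE 1.02, limma adjusted p = 0.241).

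The 7 members that were more than 9 units above the UT mean on ATF6bKO DSS replicate 2 were Crct1, Lce3f, Krt1, Krtdap, Sprr2d, Calm4 and Kprp. Their differences in ATF6aKO DSS were 0.21, 0.32, 0.10, 2.05, 0.33, 2.35 and -0.14, and none passed the test with all arrays (limma adjusted p from 0.423 for Calm4 upward). Krtdap was well above background on both ATF6aKO DSS arrays, Crct1 (-5.79) and Calm4 (-5.08) on DSS replicate 2 alone, and the other 4 on no ATF6aKO array. Krt5 was at -4.18 and -4.76 untreated and -4.10 and -4.18 after DSS. Krt4, Krt10 and Trp63 were below background on all 4 ATF6aKO arrays. Lor was at -1.98 and -1.77 untreated and -1.36 and -1.50 after DSS. A difference between the DSS responses of the knockouts was not tested for these genes, since the list was chosen from one of them. On ATF6aKO DSS replicate 2 the follicle keratin Krt27 was at -1.65, against -6.29 on replicate 1, beside the Krt78 value given above.

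**Figure D4:**
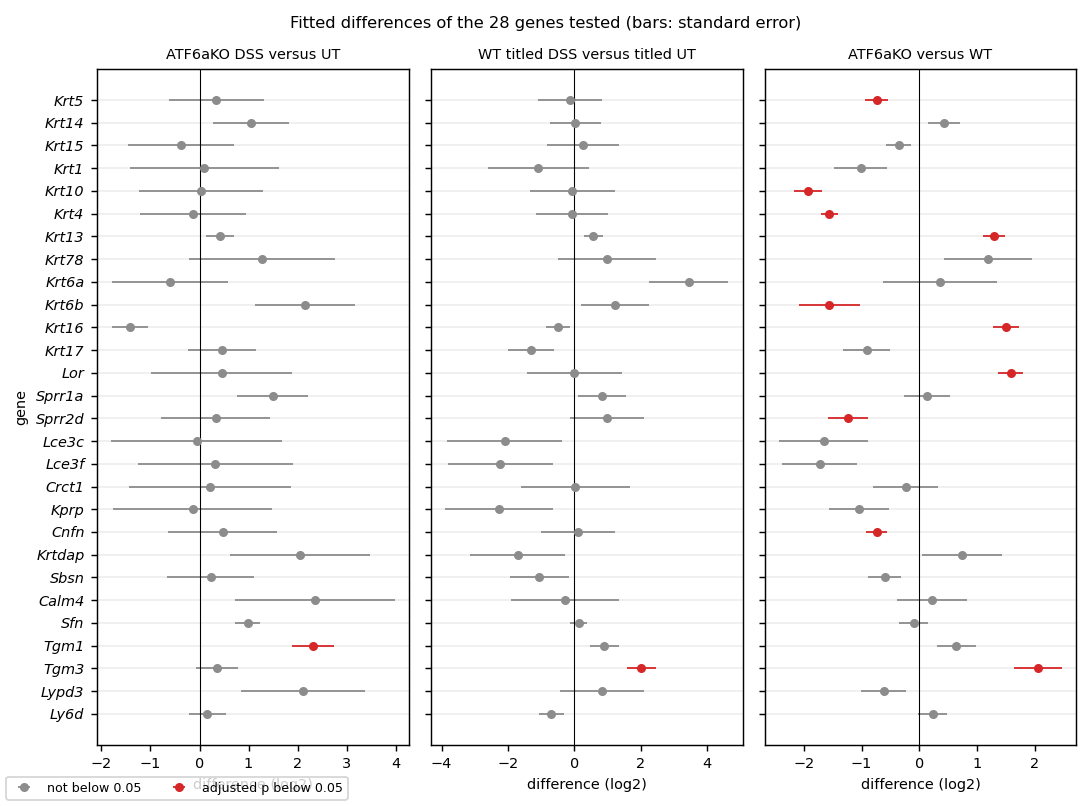
Fitted log2 differences of the 28 members tested, in ATF6aKO DSS against UT, WT titled DSS against titled UT, and ATF6aKO against WT, with bars for 1 standard error and red where the limma adjusted p was below 0.05. In the first panel Tgm1 is called at 2.31, in the second Tgm3 at 2.02, and in the third 10 genes are.

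Between the WT groups 1 of the 28 members passed, where 31.8% of all genes did (14.8% higher, 17.0% lower). Of the 20 well above background on both arrays of a WT group 1 was called, where 32.6% of such genes were. Tgm3 was at 0.47 and 1.54 on WT titled UT and at 2.98 and 3.06 on WT titled DSS, a difference of 2.02 for titled DSS minus titled UT (SE 0.435, limma adjusted p = 0.0107, 0.00297 to 0.0577 over the alternatives). Under the treatment fields the sign turns. The call was lost without WT titled DSS replicate 1 (adjusted p = 0.052), DSS replicate 2 (0.0567) or UT replicate 1 (0.0567), and in a fit of the 4 WT arrays alone (0.0577). Krt6a came next, at -7.91 and -7.70, below background, on titled UT and -6.02 and -2.68 on titled DSS (3.45, SE 1.19, limma adjusted p = 0.0543). Without the ATF6bKO arrays 5 were called: Tgm3 higher, and Kprp, Krt17, Krtdap and Sbsn lower on titled DSS. Kprp was well above background on 1 WT array only, titled UT replicate 2 (-5.02), so its call rests on values below background. Without either ATF6bKO DSS array alone there were 7.

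Against WT, 10 of the 28 members were called in ATF6aKO over UT and DSS together (limma, 8 arrays with treatment as a term), where 35.3% of all genes did (14.7% higher, 20.6% lower). Of the 20 members well above background on both arrays of an ATF6aKO or WT group 7 were called, 4 higher and 3 lower, where 35.4% of such genes were. Krt4, Krt6b and Sprr2d, the other 3, were not so measured. The estimate is the same under either reading of the WT labels, but its SE, p and call can differ. Those given are for the WT groups as titled, and the exchanged reading was not run for this comparison. Each genotype was on a slide of its own, so genotype and slide cannot be told apart here. Higher were Krt13 (1.30, SE 0.189, limma adjusted p = 0.00211), Krt16 (1.50, SE 0.221, 0.0022), Lor (1.58, SE 0.21, 0.0015) and Tgm3 (2.06, SE 0.416, 0.00747). All 4 were well above background on all 8 arrays and kept their call under every alternative run, each with the WT groups as titled. Lor ran from -3.52 to -2.94 in WT and from -1.98 to -1.36 in ATF6aKO, with no overlap.

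The 6 called lower stand on weaker signal. Krt4 and Sprr2d were below background on all 8 arrays, Krt10 on the 4 ATF6aKO arrays, and Krt6b on 5 of the 8. With normexp background correction the sign of these 4 turned, and no member was called lower. Krt5 (-0.74, SE 0.203, limma adjusted p = 0.0232) and Cnfn (-0.74, SE 0.183, limma adjusted p = 0.016) were above background throughout, and their calls were lost with normexp, in the authors' value table and without ATF6aKO UT replicate 2 (adjusted p = 0.0652 and 0.0545). That of Krt5 was also lost without WT titled DSS replicate 1 (0.055) or WT titled UT replicate 2 (0.0542). With normexp the share of higher among all called genes moved from 41.6% to 61.4%, and in the authors' value table to 87.8%, where the median of all genes was 0.56.

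The DSS response of ATF6aKO was set against that of WT by the interaction in the fit over all genes. With the WT groups as titled, limma called 0 of the 28 members (4 had an unadjusted p below 0.05), where 7.66% of all genes were called, 3.58% higher and 4.08% lower. With the WT groups exchanged it called 4, Tgm1, Tgm3 and Sfn higher and Krt16 lower, where 27.9% of all genes were called. Which reading of the WT labels holds decides this count.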

How the data were processed

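Colon RNA of 12 samples was hybridised to single-colour Agilent arrays. Per the submitters' processing notes the authors extracted signals with Agilent Feature Extraction 10.7.1.1. The deposited scanner files hold intensity values, background-corrected by that software, per the file headers. From these the log2 of the processed signal was taken here and the log2 of the array's 75th percentile subtracted. Of 41174 probes, 25193 (61.2%) were named through RefSeq GRCm38.p6 accessions; 5471 carried another accession in the older of the design versions. A gene was represented by its brightest probe. Probes well above background on both arrays of at least 1 group were tested (30423 probes, 23236 genes or transcripts) with limma 3.58.1 in R 4.3.3, fitted over 12 arrays as 6 group means (ATF6aKO against WT: 8 arrays, with treatment), Benjamini-Hochberg adjustment over all genes and a threshold of 0.05. The test was checked on simulated data.

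The authors' deposited value table holds log2 values centred per probe, per a comparison with the scanner files; its scaling is unknown. In 8 of its 12 columns the values matched the array of another sample (r of 0.959 to 0.998). The WT titled DSS columns matched the WT titled UT arrays of the same replicate number, and the reverse. The ATF6aKO columns matched the other replicate of their own group, and the ATF6bKO columns their own arrays. Which of the WT labels are right was not tested. It served only as an alternative, each column assigned to the array it matched. Slide and scan each held 1 genotype, so DSS contrasts lie within a slide.

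The members and all marker lists were chosen with earlier results of these data known. Named were all 36 members, the first 3 detected genes of each marker list as written, and the 15 genes whose profile was most like the members' mean; Aqp3, Col17a1, Lce1a1, the Sprr2 relatives, Tyr and Tyrp1 were named after their values were seen. Alternatives were normexp (offset 50), quantile normalization, a percentile over probes detected on all arrays, no filter, a filter of 6 arrays, the mean of a gene's probes, the value table, other sets of arrays, a replicate block, and leaving out each array. Replicate numbers did not pair the samples (correlations of -0.0179 to 0.0747 between same-numbered deviations).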

Additional observations from a re-analysis of the deposited data

Results flagged for a closer look

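Under the reading of the WT labels by their treatment fields, in which the arrays titled UT are the DSS arrays, the DSS response of 4 members differed between ATF6aKO and WT by a test of the difference itself (limma, ATF6aKO response minus WT response, 27.9% of all genes called). Tgm1 differed by 3.21 (limma adjusted p = 0.00771), Tgm3 by 2.38 (limma adjusted p = 0.0228), Sfn by 1.11 (limma adjusted p = 0.0466) and Krt16 by -1.91 (limma adjusted p = 0.0271). Each group has 2 arrays. Under the reading by titles the same differences were 1.41, -1.65, 0.85 and -0.93, and limma called 0 of the 28 members, with 4 at an unadjusted p below 0.05 (7.66% of all genes called). Tgm1 and Sfn had the same sign under both readings, as did Krt16, and Tgm3 changed sign. The readings subtract or add the same WT difference. A shared sign therefore means only that the ATF6aKO difference was larger in size than the WT one.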

How the results depend on the processing

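Arrays of 2 per group limit every test here, and dim probes are limited by background. The median of the 36 genes on ATF6bKO DSS replicate 1 was 0.32 with normexp, 1.72 with quantile normalization, 1.22 with the filter of 6 arrays (20 members), 1.70 in the value table and 2.38 over the 28 tested members, the last chosen after seeing the data; leaving out an array gave 1.50 to 1.66. On replicate 2 it was 2.83, 5.26, 4.18, 5.16 and 6.77 in that order, 4.71 when probes were averaged per gene, and 5.10 to 5.18 without an array. The count of members with both DSS arrays above both UT arrays was 13 of 20 under the filter of 6 arrays and 24 to 33 of 36 without an array. The share of all genes was not taken for these settings, and nothing is read from the counts. For ATF6aKO DSS against UT, 2 members were called with normexp, 3 with the filter of 6 arrays, 2 with the mean of probes and 3 without the ATF6bKO arrays, and 0 to 4 without an array. For the WT groups the counts were 2 with the filter of 6 arrays, 0 in a fit of the WT arrays alone (limma; 2 at an unadjusted p below 0.05 with all arrays), 5 without the ATF6bKO arrays and 0 to 7 without an array. With the replicate block 1, 2 and 10 members were called in ATF6aKO DSS, WT and ATF6aKO against WT; the numbers do not pair the samples. For ATF6aKO against WT 5 members were called with normexp, all higher, and 6 to 11 without an array. Reversed with normexp were Krt10 (0.03), Krt4 (0.37), Krt6b (0.08) and Sprr2d (0.29); all 4 have probes below background in ATF6aKO, or above it on 1 array. Of the other values of single genes, 311 kept their side of the threshold, 31 lost a call and 20 gained one. A change of sign was counted only where the main run or the alternative had a call. The causes were not tested.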

Other observations

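Beyond the lists, 15 genes had the profile over the 12 arrays most like the mean of the 36 members, among 4512 genes. These ranged over at least 2 log2 units and were well above background on both arrays of at least 1 group. A gene seen on ATF6bKO DSS replicate 2 alone could not enter. The likeness is a Pearson correlation over 12 arrays, given as a description, and ATF6bKO DSS replicate 2 was the highest array for all 15. Some were higher on both ATF6bKO DSS arrays than on both UT arrays: Dapl1, a protein of differentiating epithelia (r = 0.985), was at -4.96 and -4.73 untreated and -2.63 and 1.99 after DSS, and Calml3, a calmodulin-like epithelial protein (0.943), at -5.06 and -5.59 untreated and -2.17 and 2.35 after DSS. Gm94 (0.986), Defb14, a beta-defensin of epithelia (0.968), Cyp2a5 (0.96), Stfa2 (0.957), Teddm3 (0.946) and the platelet chemokine Ppbp (0.922) likewise had both DSS arrays above both UT arrays. Ppbp was at -1.67 and 0.77 after DSS. Gm94, Defb14, Cyp2a5, Stfa2 and Teddm3 passed the background filter only through the ATF6bKO DSS pair. That both DSS arrays were above the UT arrays was nearly fixed for them by that filter, and nothing is read from it.

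Others stood widely apart on replicate 2 alone. These were the hair keratin-associated proteins Krtap6-1 (0.944), Krtap5-1 (0.938), Krtap16-3 (0.926) and Krtap19-1 (0.919), the hair calcium-binding protein S100a3 (0.92), the fast muscle light chain Myl1 (0.963) and Serpinb3c (0.908). S100a3 and Serpinb3c also had replicate 1 above both UT arrays, by a small margin. S100a3 was at -3.59 there against -3.83 and -4.26 untreated, and Serpinb3c at -3.90 against -4.10 and -4.03. Krtap6-1 was at -3.63 on replicate 1 and 2.32 on replicate 2, where the UT arrays gave -3.84 and -2.93. Myl1 was at -1.56 on replicate 1 and 2.77 on replicate 2, with -1.78 and -1.46 on the UT arrays. The mean level of the squamous members was 0.72 on replicate 2 and between -4.94 and -3.06 on the other arrays. A correlation with that mean is set mostly by replicate 2 and favours any gene high there, whatever its tissue. That hair and muscle genes were among those most like it repeats that they were high on replicate 2, and nothing more is read from it.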
